A study of Mus musculus with 6 samples.

Results

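The 46 genes described here encode the machinery of mitosis and the DREAM complex that controls its transcription: the MuvB core (Lin9, Lin37, Lin52, Lin54), the transcription factors that bind it (Mybl2, Foxm1), the G2/M cyclins and their kinase, the mitotic kinases, the spindle checkpoint, the kinetochore, spindle motors, anaphase proteolysis, condensin and cytokinesis. The set is a list of gene symbols. A member was measured through every Affymetrix probe set that the platform annotation assigns to that symbol alone. On this rule 45 of the 46 genes had a probe set, with 103 probe sets of 45101 on the array. Ccnb1, which encodes cyclin B1, was listed by 0 probe sets and is not analysed here. Of the 103 probe sets, 95 had a mean log2 intensity of at least 4 over the 6 arrays and were tested, and each of the 45 genes kept at least 1 of them.

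The arrays measured total RNA of undifferentiated mouse embryonic stem (ES) cells of a Dicer -/- line, named 27H in the sample titles and 27H10 in the title of the series, which lack the enzyme that makes mature microRNAs. The control group is 3 samples transfected with siRL, an siRNA against Renilla luciferase, and the other group is 3 samples transfected with mimics of the miR-290 cluster. All 6 samples were taken 24 h after transfection, so the Dicer deletion and the transfection are shared by both groups, and the line is a single cell line. Nothing states that replicates came from separate cultures, and the p-values below then reflect just the variation among these 6 samples, possibly only technical variation.

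The DREAM complex joins the MuvB core to the pocket proteins p107 or p130 (Rbl1, Rbl2) and E2F4 or E2F5, and holds cell cycle genes silent in quiescence and early G1. When cyclin-dependent kinases phosphorylate the pocket proteins, MuvB is released and binds B-Myb (Mybl2) and then FoxM1, and the same promoters are driven in late S and G2. MuvB reaches these promoters through Lin54, which binds a short element called the CHR (cell cycle genes homology region), while E2F proteins bind GC-rich sites that are typical of genes of the G1/S transition. Mouse ES cells divide fast and have a short G1 phase. The miR-290 cluster is the main microRNA cluster of mouse ES cells, and among its reported targets are inhibitors of the G1/S transition and Rbl2.

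The mimic group received mimics of the miR-290 cluster, and the control group received siRL instead. The RefSeq (GRCm38.p6) entries used here hold 17 mature microRNAs of the cluster, from both strands. They include miR-292a-5p but no miR-292a-3p, so the list is not complete and the family may have more members than are shown. Of the 17 entries, 5 share the letters AAGUGC at bases 2 to 7, the start of the seed with which a microRNA pairs to its targets. They are shown because this shared seed defines the family, with bases 2 to 8 in capitals. The labels name the cluster and not the individual mimics, so which of them were transfected is not given in the sources used here.
miR-290a-3p (chr7:3218674-3218697, plus strand): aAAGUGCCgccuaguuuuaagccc
miR-291a-3p (chr7:3218968-3218989, plus strand): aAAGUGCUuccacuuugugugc
miR-291b-3p (chr7:3219529-3219550, plus strand): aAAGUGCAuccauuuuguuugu
miR-294-3p (chr7:3220691-3220712, plus strand): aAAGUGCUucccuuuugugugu
miR-295-3p (chr7:3220815-3220837, plus strand): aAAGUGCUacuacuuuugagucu
The miR-291a, miR-294 and miR-295 forms have the same 7 seed bases, and the other 2 shown differ from them at base 8.

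The promoters of the members carry the letters that the DREAM complex and its partners read. RefSeq promoter windows (GRCm38.p6, 250 bases before to 50 bases after the annotated start, 300 bases) were found for 38 of the 46 genes. The letters TTTGAA of the CHR, or its common variant spelled TTCGAA, on either strand, occurred in the windows of 28 of these 38 genes (73.7%), against 21.7% of 27025 genes with a window. Within 50 bases of the annotated start, 24 of 38 genes had such letters, against 6.12% of all genes. The CCAAT letters of the box bound by NF-Y, a factor that acts beside the CHR on mitotic promoters, were in the windows of 29 of 38 genes (76.3%), against 41.1% of all genes. E2F letters were in those of 13 genes (34.2%), against 15.3%. They were searched on either strand in 3 spellings: first the string TTCCCGC, then a string that can overlap with it, spelled TCCCGCC, and as the last spelling TTTGGCGC. Both CHR and E2F letters were found for 10 genes. A match describes letters in a window and is not a binding site.

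The windows of 4 members are printed to show these arrangements, with CHR and E2F letters of either strand in capitals. Cdk1 and Cdc20 have CHR letters just before the start and no E2F letters, Mybl2 has E2F letters and no CHR letters, and Anln has both. In Cdk1 the CHR letters begin 71 and 15 bases before the start, in Cdc20 18 bases before it, in Mybl2 the E2F letters begin 13 bases before it, and in Anln the E2F letters begin 230 bases before it.
Cdk1 (chr10:69352863-69353162, minus strand): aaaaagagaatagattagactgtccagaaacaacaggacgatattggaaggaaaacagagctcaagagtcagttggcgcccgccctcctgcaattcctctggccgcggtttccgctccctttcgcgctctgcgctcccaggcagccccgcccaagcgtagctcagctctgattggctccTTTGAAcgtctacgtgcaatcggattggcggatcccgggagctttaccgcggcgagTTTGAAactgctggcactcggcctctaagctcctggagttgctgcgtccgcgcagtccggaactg
Cdc20 (chr4:118437294-118437593, minus strand): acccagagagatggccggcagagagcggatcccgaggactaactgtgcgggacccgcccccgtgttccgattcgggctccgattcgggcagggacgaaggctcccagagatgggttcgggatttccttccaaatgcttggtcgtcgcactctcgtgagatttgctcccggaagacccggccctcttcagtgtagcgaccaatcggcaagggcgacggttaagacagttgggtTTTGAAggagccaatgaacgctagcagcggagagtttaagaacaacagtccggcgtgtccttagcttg
Mybl2 (chr2:163054385-163054684, plus strand): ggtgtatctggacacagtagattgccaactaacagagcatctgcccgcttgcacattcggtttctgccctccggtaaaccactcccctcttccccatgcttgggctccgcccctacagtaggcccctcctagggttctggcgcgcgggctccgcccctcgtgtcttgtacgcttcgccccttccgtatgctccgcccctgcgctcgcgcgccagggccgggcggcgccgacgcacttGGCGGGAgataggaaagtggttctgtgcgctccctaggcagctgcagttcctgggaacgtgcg
Anln (chr9:22389157-22389456, minus strand): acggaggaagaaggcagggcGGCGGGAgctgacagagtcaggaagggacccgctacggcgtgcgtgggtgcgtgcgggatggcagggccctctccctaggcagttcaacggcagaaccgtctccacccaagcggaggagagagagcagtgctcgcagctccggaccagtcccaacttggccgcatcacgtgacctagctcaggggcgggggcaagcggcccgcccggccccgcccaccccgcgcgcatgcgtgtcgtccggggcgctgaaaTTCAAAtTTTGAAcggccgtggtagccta

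**Figure D1:**
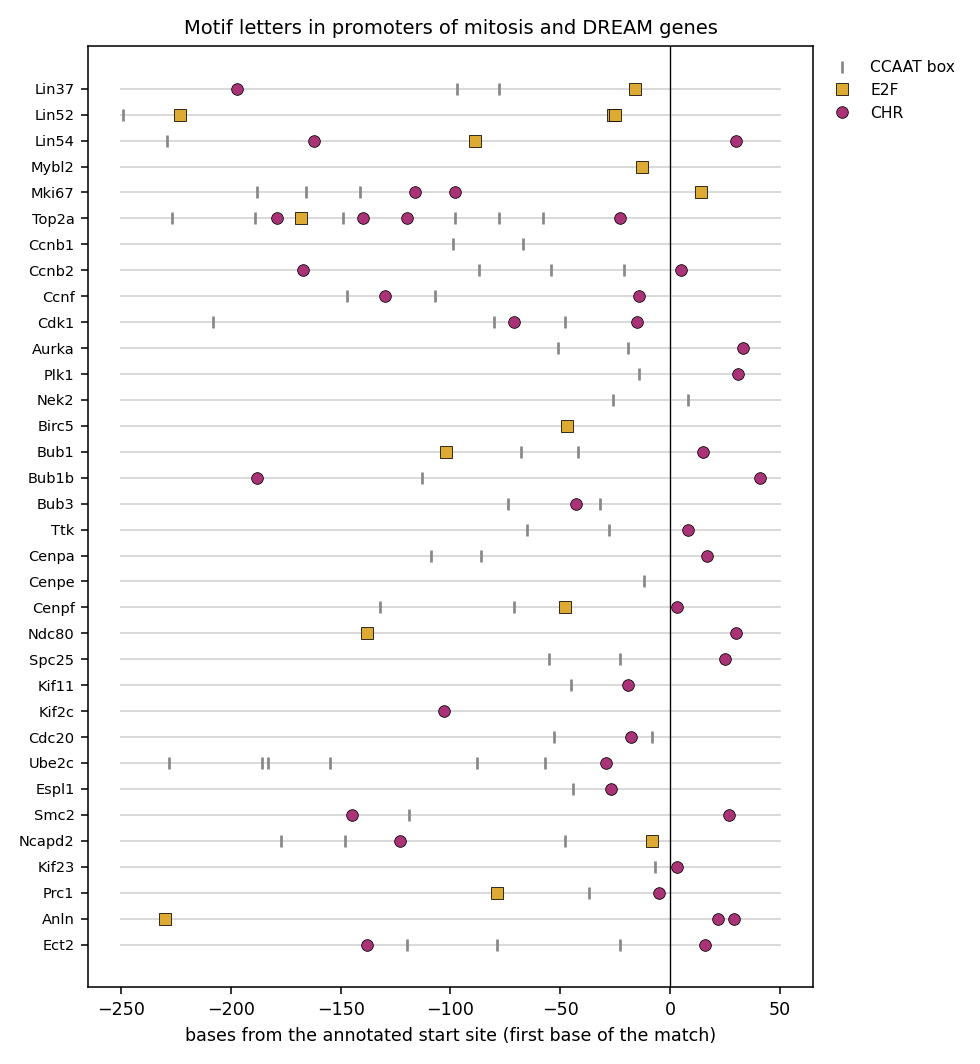
Positions of CHR letters (circles), E2F letters (squares) and CCAAT letters (grey bars) in the promoter windows of 34 members with at least 1 match, in bases from the annotated start on the horizontal axis and 1 gene per line. Where a gene has several windows the first by coordinate is drawn. The CHR letters gather near the start, with 24 of 38 matched genes holding them within 50 bases of it.

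Differences in the transcripts of the mitotic machinery were small 24 h after transfection of the mimics. With each gene read from its brightest probe set, the median log2 difference (mimics minus control, on log2 intensity) over the 45 genes was -0.04, against -0.01 over 13815 genes tested, and the members ranged from -0.41 to 0.40. The difference was below 0 for 31 members and above 0 for 14, and over all genes tested it was below 0 for 52.0%. None of the 45 brightest probe sets passed a limma adjusted p of 0.05 in either direction, against 1.38% lower and 0.456% higher over all genes tested. At an unadjusted p under 0.05 there were 5 lower (11.1%, background 14.5%) and 3 higher (6.67%, background 9.99%). In 41 of 45 members (91.1%) the difference was within 0.25 of 0, against 57.1% of all genes tested. Members were also bright, with a mean log2 intensity of at least 8 for 44 of them, and among 7806 genes tested at that level 71.2% were within 0.25 of 0. The 95% limma interval lay inside 1.5-fold in either direction for 43 of 45 members (95.6%), against 50.6% of all genes tested and 78.3% of those at a mean log2 of at least 8. The exceptions were Lin52, measured near the floor, and Foxm1. In RNA of whole cultures, fewer cells in mitosis and less RNA per cell cannot be told apart.

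Over single probe sets, 1 of 95 passed higher with the mimics and 0 passed lower in the limma fit over 29167 probe sets. The background in that fit was 0.343% of all probe sets higher and 0.946% lower, and at an unadjusted p under 0.05 there were 6 member probe sets higher (6.32%, background 8.49%) and 10 lower (10.5%, background 11.6%). The probe set that passed was the dimmer of the Mybl2 pair. With limma's prior variance made dependent on signal level and estimated robustly (limma's trend and robust options, called the robust prior from here on), 6 of 95 were lower (6.32%, background 6.56%) and 4 of 95 higher (4.21%, background 4.73%). The shares of members called with the robust prior were near the background in both directions. On brightest probe sets the robust prior called Aurkb, Nek2 and Anln lower and Mybl2, Birc5 and Cenpa higher. These are 6.67% of the genes in each direction, against 9.43% lower and 6.2% higher over all genes tested, and 14% and 9.34% over genes tested whose mean log2 reached 8. Without any overlap between the 3 control and the 3 mimic arrays, 8 of 45 genes were lower (17.8%, background 19.3%) and 5 higher (11.1%, background 16.2%). Over genes tested whose mean log2 reached 8, the shares without overlap were 25.1% lower and 20.9% higher.

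**Figure D2:**
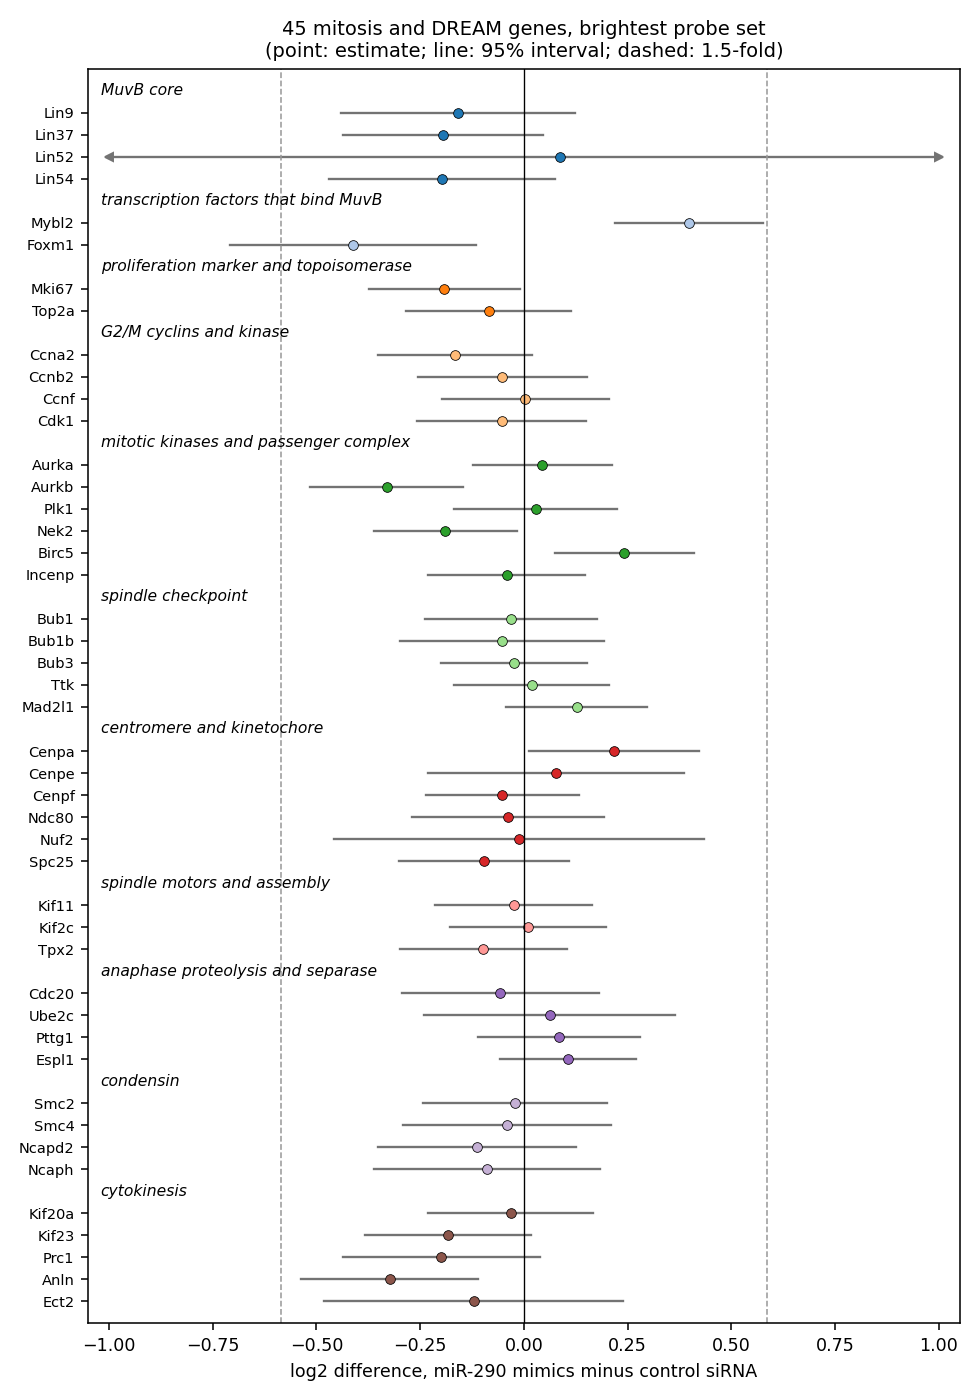
Log2 difference (mimics minus control, horizontal axis) of the brightest probe set of 45 members, grouped by role, with 95% limma intervals from 3 arrays a group; dashed lines mark 1.5-fold and arrowheads an interval that runs past the axis. For 43 of 45 genes the interval lies between the dashed lines, and the point estimates run from -0.41 (Foxm1) to 0.40 (Mybl2).

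**Figure D3:**
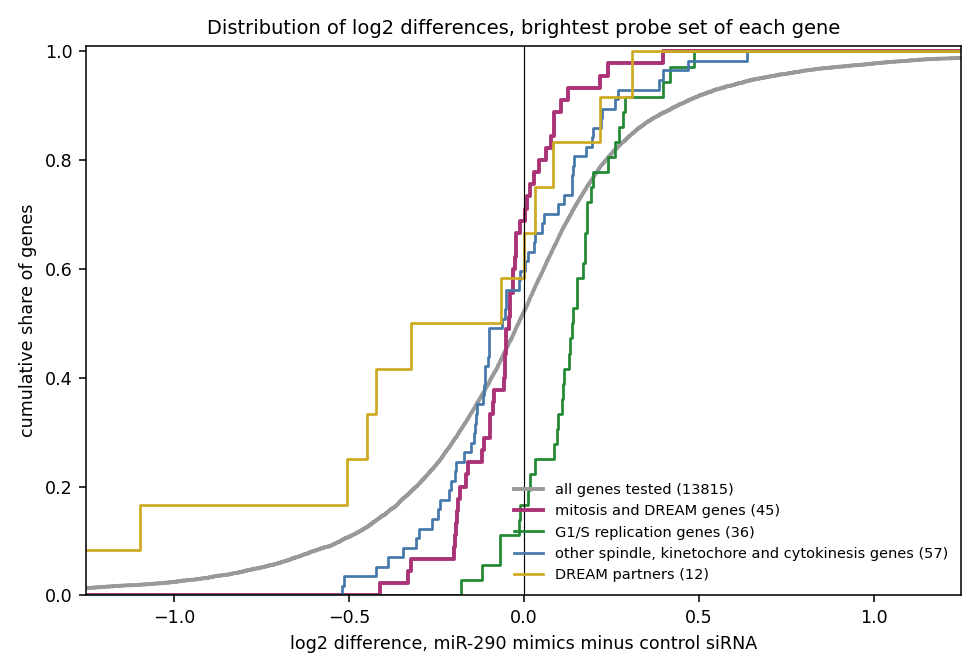
Cumulative share of genes (vertical axis) by log2 difference (horizontal axis) for all genes tested, the members and 3 related lists, each gene read from its brightest probe set. The line of the members is the steepest near 0, with 41 of 45 genes within 0.25 of it; genes beyond the ends of the axis are not drawn.

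Of the MuvB core, the scaffold of both the repressing and the activating complex, no gene passed the test. Lin9, which together with Lin52 forms the surface that binds B-Myb, had intensities of 542, 502 and 542 on the control arrays and 467, 423 and 536 on the mimic arrays. Its difference was -0.16 (95% interval -0.44 to 0.12, limma adjusted p 0.482). Lin37, needed for repression by DREAM, read 1679.9, 1803 and 1506 on the control arrays and 1445, 1512 and 1393 on the mimic arrays. The second mimic array lay just above the lowest control array, and the difference was -0.19 (interval -0.44 to 0.05, limma adjusted p 0.335). Lin54, the subunit that contacts the CHR, read 1404, 1297 and 1316 on the control arrays and 1052, 1149 and 1318 on the mimic arrays. The third mimic array lay within the control range, and the difference was -0.20 (interval -0.47 to 0.08, limma adjusted p 0.38), while a dimmer Lin54 probe set gave 0.13. Lin52, whose phosphorylation lets the pocket proteins join, read 32.4, 10.2 and 26.6 on the control arrays and 36.3, 27.3 and 10.7 on the mimic arrays. These values are near the floor and their interval (-1.55 to 1.72) covers both large falls and large rises.

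Mybl2, which encodes B-Myb, the factor that replaces the pocket proteins on MuvB as cells leave G1, had the largest upward difference of the brightest probe sets. Its brightest probe set read 2399, 2388 and 2474 on the control arrays and 3159, 3336 and 3076 on the mimic arrays, with no overlap between the groups. Means ± SD (n = 3) were 2420.4 ± 47.1 in the control and 3190.3 ± 133 with the mimics, a log2 difference of 0.40 ± 0.071 (SE), or 1.32-fold, with a limma adjusted p of 0.0701 and of 0.00111 with the robust prior. A dimmer Mybl2 probe set read 189.9, 201 and 217 on the control arrays and 379, 459.9 and 373 on the mimic arrays. It rose by 0.99 ± 0.116 (SE), or 1.99-fold, and passed with a limma adjusted p of 0.0422 (0.000705 with the robust prior). The directions of both probe sets were the same and their sizes differed. Without any 1 of the 6 arrays the call of the dimmer probe set was lost in that fit (limma adjusted p 0.125 to 0.149), as were nearly all calls of the series, with at most 1 probe set called on 5 arrays. With the robust prior both Mybl2 probe sets passed without each of the 6 arrays in turn.

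Foxm1, the forkhead factor that joins MuvB in G2 and drives genes such as Plk1 and Cenpf, had the largest downward difference of the brightest probe sets. It read 412, 431 and 356 on the control arrays and 274, 329 and 298 on the mimic arrays, so that every mimic value lay below every control value. Means ± SD (n = 3) were 399.7 ± 39.4 in the control and 300.3 ± 27.6 with the mimics, a difference of -0.41 (interval -0.71 to -0.12). It did not pass (limma adjusted p 0.145, 0.0528 with the robust prior). The other tested Foxm1 probe sets gave -0.24 and -0.34. Plk1 and Cenpf, described with their groups, had differences of 0.03 and -0.05.

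**Figure D4:**
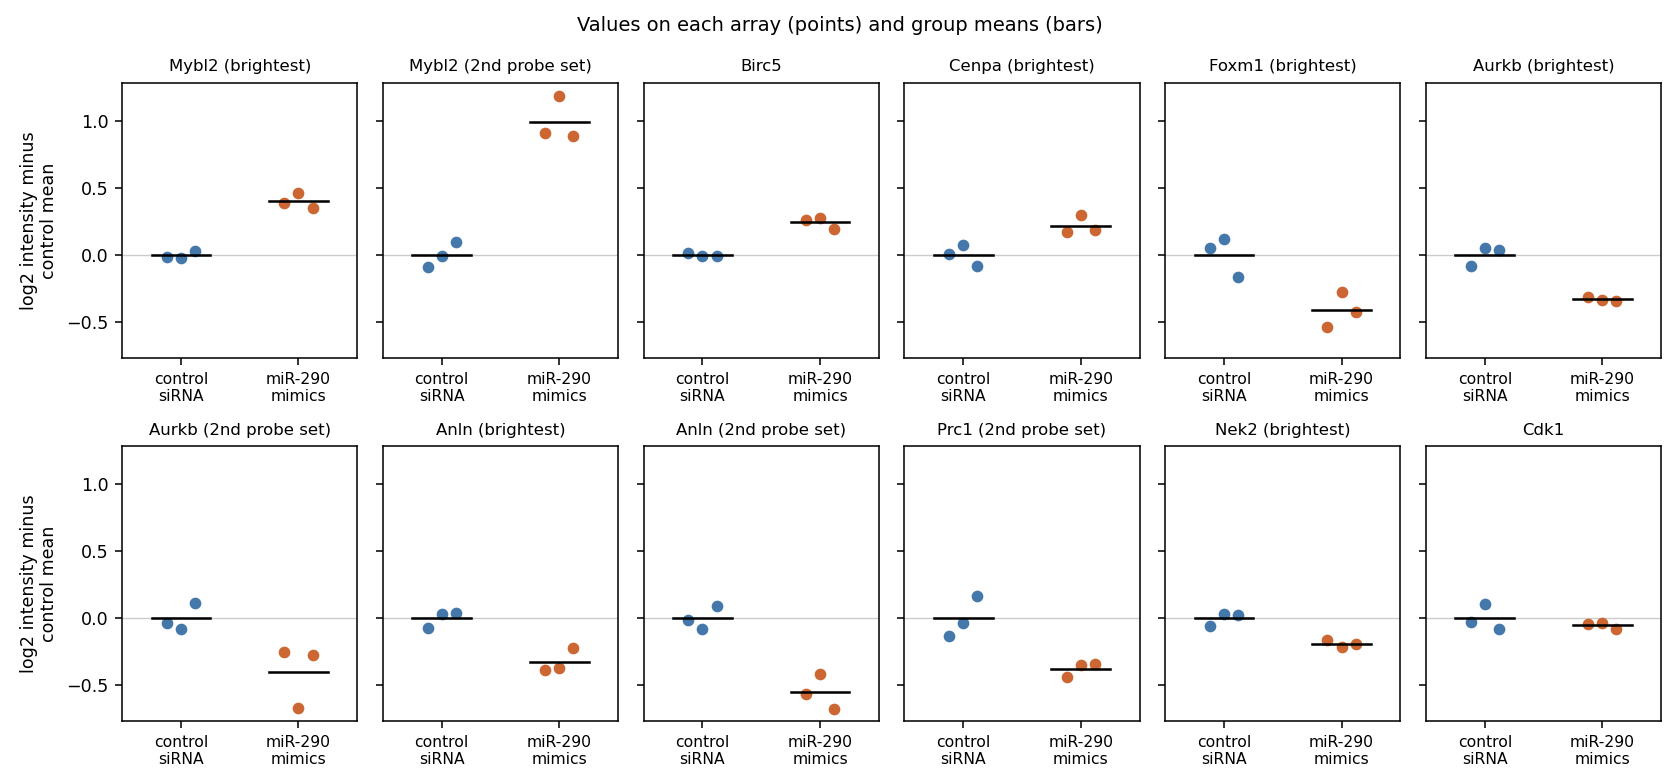
Log2 intensity minus the control mean (vertical axis) on each of 3 control and 3 mimic arrays (points, with bars for the group means) for 12 probe sets of 9 members. The Mybl2, Birc5 and Cenpa points lie higher with the mimics, those of Foxm1, Aurkb, Anln, Prc1 and Nek2 lie lower, and the Cdk1 points overlap. Prc1 is drawn from its dimmer probe set, and its brightest, on which the groups overlap, is not drawn. Apart from Foxm1 and Cdk1, the probe sets drawn were called with the robust prior.

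Neither the common proliferation marker nor topoisomerase II passed the test. Mki67, which encodes Ki-67, read 2109, 2219 and 2053 on the control arrays and 1904, 1880.2 and 1801 on the mimic arrays, with no overlap between the groups. The difference was -0.19 (interval -0.37 to -0.01) and did not pass (limma adjusted p 0.231). Top2a, which untangles sister chromatids, read 9420.3, 9747 and 9659 on the control arrays and 8661, 9741 and 8816 on the mimic arrays, overlapping values with a difference of -0.08 (limma adjusted p 0.596).

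None of the 4 measured genes of the G2/M cyclins and their kinase passed the test, and their median difference was -0.05. Cdk1, the kinase of mitotic entry, read 8990.4, 9892 and 8688 on the control arrays and 8907, 8966 and 8662 on the mimic arrays. Its difference was -0.05 (interval -0.26 to 0.15, limma adjusted p 0.753). Ccna2, which encodes cyclin A2 of S and G2 phase, read 4358, 4735 and 4630.4 on the control arrays and 3992, 4227 and 4009 on the mimic arrays. The mimic values were all lower than the control values, but the difference of -0.17 (interval -0.35 to 0.02) did not pass (limma adjusted p 0.294), and a dimmer Ccna2 probe set gave -0.01. Ccnb2, a B-type cyclin, had means of 8101 ± 413 in the control and 7814 ± 372 with the mimics, a difference of -0.05. Ccnf, a substrate receptor of an SCF ubiquitin ligase, had means of 2313 ± 150.0 in the control and 2316 ± 48.9 with the mimics, a difference of 0.00.

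Among the mitotic kinases and the chromosomal passenger complex, 0 of 6 genes passed in the limma fit with a constant prior, and the robust prior called members in both directions. Aurkb, the kinase of that complex, read 1767, 1939 and 1923 on the control arrays and 1506, 1485 and 1479.9 on the mimic arrays. Means ± SD (n = 3) were 1877 ± 94.8 in the control and 1491 ± 14.0 with the mimics, a difference of -0.33 ± 0.0733 (SE) with a limma adjusted p of 0.0951 and of 0.00658 with the robust prior. A dimmer Aurkb probe set read 1855, 1799 and 2060.5 on the control arrays and 1595, 1198 and 1577 on the mimic arrays, a difference of -0.40. No mimic value of either probe set reached a control value.

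Birc5, which encodes survivin, the subunit that brings Aurora B to the centromere, read 7556, 7419 and 7417 on the control arrays and 8916, 9022 and 8549 on the mimic arrays. Means ± SD (n = 3) were 7464 ± 79.9 in the control and 8829 ± 248 with the mimics, a difference of 0.24 ± 0.0665 (SE) with a limma adjusted p of 0.138 and of 0.00547 with the robust prior. Every mimic value of Birc5 was above every control value, opposite to Aurkb of the same complex. Incenp, the scaffold of that complex, had means of 10650.5 ± 405 in the control and 10347 ± 421 with the mimics and a difference of -0.04. A dimmer Incenp probe set, without overlap between the groups, gave -0.18 (limma adjusted p 0.245, 0.0554 with the robust prior). The other tested Incenp probe sets gave -0.05 and -0.15. Both calls of the robust prior, for Aurkb and Birc5, stood without each of the 6 arrays in turn.

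Nek2, a centrosomal kinase that splits the centrosome pair, read 4657, 4937 and 4932 on the control arrays and 4318, 4181 and 4237 on the mimic arrays. Its difference was -0.19 (interval -0.36 to -0.02), with a limma adjusted p of 0.215 and of 0.0324 with the robust prior. That call stood without 1 of the 6 arrays and was lost without each of the others. Dimmer tested Nek2 probe sets gave -0.16 and -0.19, each with overlapping groups, and neither passed with either prior. Plk1, which acts from centrosome maturation to cytokinesis, read 2134, 2333 and 2224 on the control arrays and 2204, 2395 and 2228 on the mimic arrays, a difference of 0.03 (limma adjusted p 0.868). Aurka, the spindle pole kinase, had means of 3533 ± 98.8 in the control and 3641 ± 24.3 with the mimics and a difference of 0.04 (interval -0.12 to 0.21).

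The genes of the spindle checkpoint, which delays anaphase until every kinetochore is attached, did not pass in either direction. Mad2l1, which encodes the Mad2 inhibitor of Cdc20, read 11870.5, 11309 and 11714 on the control arrays and 12402, 12681 and 13017 on the mimic arrays. Its mimic values were all above the control values, with a difference of 0.13 (interval -0.04 to 0.30, limma adjusted p 0.369). Bub1, a kinase that recruits checkpoint proteins, had means of 3588 ± 249 in the control and 3507 ± 58.8 with the mimics, a difference of -0.03. Bub1b, which encodes BubR1, had means of 3379 ± 207 in the control and 3260.3 ± 269 with the mimics, a difference of -0.05. For Bub3, their partner, the means were 7887 ± 304 in the control and 7760.1 ± 119 with the mimics, a difference of -0.02, and those of Ttk, the Mps1 kinase, were 1822 ± 85.2 in the control and 1845 ± 45.1 with the mimics, a difference of 0.02. A second Bub3 probe set, well above the floor, had a difference of -0.09 (interval -0.29 to 0.11). The dimmest of the 5 tested Bub3 probe sets, near the floor, read 20.5, 18.0 and 10.1 on the control arrays and 45.4, 25.6 and 58.1 on the mimic arrays, with every mimic value above every control value. Its difference of 1.39, the largest upward difference of all 95 tested member probe sets, had an interval of 0.35 to 2.43 and a limma adjusted p of 0.155, and a fold at such low values is uncertain.

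At the centromere and kinetochore, Cenpa differed most. Cenpa, the histone H3 variant that marks the centromere, read 3886, 4053 and 3648 on the control arrays and 4346, 4731 and 4388 on the mimic arrays. The groups did not overlap, and means ± SD (n = 3) were 3862 ± 203 in the control and 4488 ± 212 with the mimics, a difference of 0.22 ± 0.0809 (SE). Its limma adjusted p was 0.228, and 0.0349 with the robust prior, a call that stood without 1 of the 6 arrays and was lost without each of the others. Of the proteins that link the kinetochore to microtubules, Ndc80 had a difference of -0.04 (means 1201 ± 111 in the control and 1166 ± 16.5 with the mimics), Nuf2 of -0.01 (means 730.2 ± 152 in the control and 715 ± 61.1 with the mimics) and Spc25 of -0.10 (means 4977 ± 331 in the control and 4650.2 ± 121 with the mimics). Cenpe, a kinesin that moves chromosomes to the spindle equator, had a difference of 0.08 (means 902 ± 74.6 in the control and 954 ± 111 with the mimics). Cenpf, a large protein of the outer kinetochore, had a difference of -0.05 (means 3571 ± 153 in the control and 3444 ± 101 with the mimics). None of these 5 passed.

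The spindle motors and the assembly factor did not pass, with a median difference of -0.02. Kif11, the kinesin that pushes the spindle poles apart, had means of 1163 ± 51.7 in the control and 1143 ± 38.8 with the mimics and a difference of -0.02. Kif2c, a kinesin that shortens microtubules at the centromere, had means of 3567 ± 134 in the control and 3592 ± 138 with the mimics and a difference of 0.01. Tpx2, which activates Aurora A on the spindle, read 2797, 2991 and 2919 on the control arrays and 2681, 2890.4 and 2573 on the mimic arrays. Its difference was -0.10 (limma adjusted p 0.546), with overlapping groups. A second bright Tpx2 probe set gave -0.27 (interval -0.56 to 0.03, limma adjusted p 0.285, 0.0764 with the robust prior), also with overlapping groups. The dimmer tested ones gave 0.33 and -0.05.

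Genes of anaphase proteolysis and separase had a median difference of 0.07 over 4 genes, and none passed. Espl1, which encodes separase, the protease that cuts cohesin, read 1694, 1685 and 1674 on the control arrays and 1783, 1859 and 1802 on the mimic arrays. All mimic values lay above the control values, a difference of 0.11 (interval -0.06 to 0.27, limma adjusted p 0.421). Cdc20, the activator of the anaphase-promoting complex in mitosis, read 17100.4, 20201 and 19733 on the control arrays and 18661, 17496 and 18562 on the mimic arrays, with overlapping groups and a difference of -0.06 (interval -0.29 to 0.18). Dimmer Cdc20 probe sets gave 0.08 and 0.13, the latter with every mimic value above every control value, and neither passed. Ube2c, the ubiquitin-conjugating enzyme of that complex, had means of 13270.5 ± 1792 in the control and 13780.1 ± 619 with the mimics and a difference of 0.06. Pttg1, which encodes securin, the inhibitor of separase, had means of 17061 ± 831 in the control and 18095 ± 697 with the mimics and a difference of 0.09.

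The 4 condensin genes, whose products compact mitotic chromosomes, all had differences below 0 and none passed. Ncapd2 differed most and read 3119, 3005 and 2899 on the control arrays and 2811, 3021 and 2525 on the mimic arrays, overlapping groups with a difference of -0.11 (limma adjusted p 0.55). Smc2 and Smc4 encode the ATPase pair of both condensin complexes. Smc2 had means of 4909.9 ± 352 in the control and 4833 ± 209 with the mimics and a difference of -0.02, and Smc4 had means of 4507 ± 105 in the control and 4396 ± 443 with the mimics and a difference of -0.04. Ncaph, the kleisin subunit of condensin I, had means of 3789.5 ± 349 in the control and 3562 ± 292 with the mimics and a difference of -0.09.

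The 5 cytokinesis genes also lay below 0, with a median of -0.18. Anln, which encodes the actin-binding anillin of the cleavage furrow, read 7783, 8404 and 8433 on the control arrays and 6286, 6352 and 7047 on the mimic arrays. Means ± SD (n = 3) were 8207 ± 367 in the control and 6562 ± 421 with the mimics, a difference of -0.32 ± 0.0843 (SE) with a limma adjusted p of 0.126 and of 0.00417 with the robust prior. A dimmer Anln probe set read 448, 428 and 481 on the control arrays and 306, 339 and 283 on the mimic arrays. Its difference was -0.55 (interval -0.80 to -0.29), with a limma adjusted p of 0.0724 and of 0.00927 with the robust prior. On neither Anln probe set did the groups overlap, and with the robust prior the brighter passed without each of the 6 arrays in turn.

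Prc1, which bundles the microtubules of the central spindle, read 2934, 3193 and 3113 on the control arrays and 2487, 2945 and 2631 on the mimic arrays, a difference of -0.20 (limma adjusted p 0.317). Its dimmer probe set read 2085, 2227 and 2565 on the control arrays and 1691, 1795 and 1803 on the mimic arrays. There the difference was -0.37 ± 0.102 (SE), with a limma adjusted p of 0.137 and of 0.00979 with the robust prior, and the groups did not overlap. Kif23, the kinesin of centralspindlin, read 1773, 1761 and 1584 on the control arrays and 1499.5, 1534 and 1471 on the mimic arrays, a difference of -0.18 (limma adjusted p 0.286). Kif20a, a kinesin of the midzone, had means of 2783 ± 82.7 in the control and 2724 ± 161 with the mimics and a difference of -0.03. Ect2, the activator of RhoA at the furrow, had means of 3188 ± 418 in the control and 2928 ± 341 with the mimics and a difference of -0.12.

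**Figure D5:**
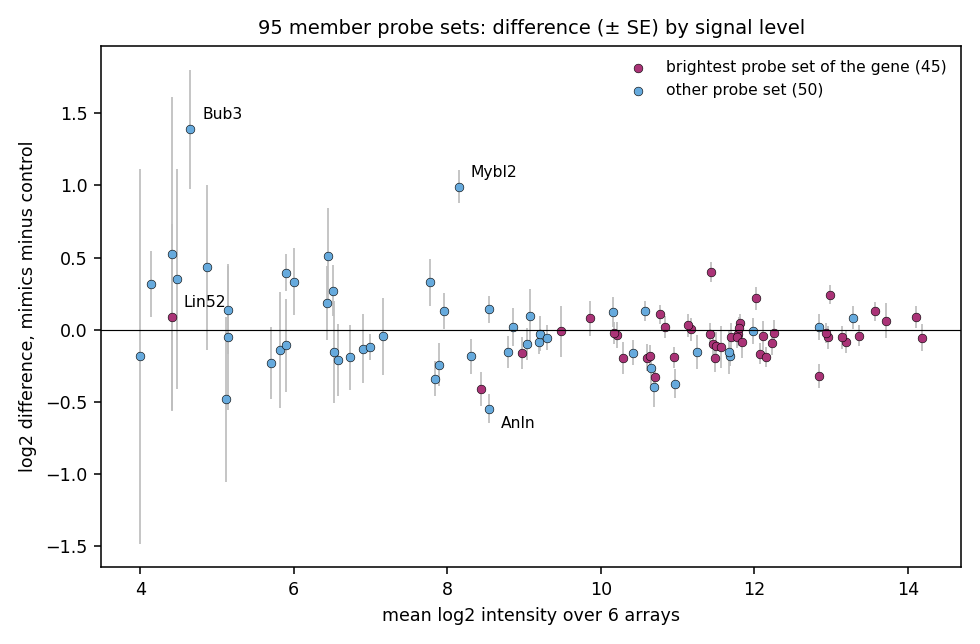
Log2 difference (mimics minus control, vertical axis, bars ± SE) of the 95 tested member probe sets against their mean log2 intensity over 6 arrays (horizontal axis), with the brightest probe set of each gene in purple and the others in blue. The spread is wide at low intensity and narrow above 8, where the 67 probe sets have a median absolute difference of 0.0975 against 0.223 for the 28 below it.

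The members can also be read by the letters in their promoter windows. The 28 genes with the letters had a median difference of -0.05 (-0.32 to 0.22), and the 9 measured genes with a window but without them a median of 0.09 (-0.19 to 0.40). The ranges overlap, and the difference between these medians was not tested. Array by array, the median member lay between -0.02 and 0.03 of its control mean on the control arrays. On the mimic arrays it lay at -0.05, -0.003 and -0.05, with 33, 23 and 30 of the 45 genes below their control means. The second mimic array thus lay within the control range.

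Genes that act beside the members were read in the same fit. Over all genes tested, that fit called 1.38% lower and 0.456% higher, and 14.5% and 9.99% at an unadjusted limma p under 0.05. The robust prior called 9.43% lower and 6.2% higher, and 14% and 9.34% over genes whose mean log2 reached 8. Of 12 genes listed as DREAM partners and their relatives (pocket proteins, E2F factors and the Dyrk1a kinase among them), 1 fell and 0 rose. Their median difference was -0.19. The list is wider than the complex described above, since it also holds Rb1, E2f1, E2f2 and E2f3. The one that fell was Rbl2, which encodes p130, from 350.3 ± 44.8 to 94.1 ± 26.7 (SD, n = 3), a log2 difference of -1.93 (limma adjusted p 0.0453). Rbl1, which encodes p107, had a difference of -0.32 (limma adjusted p 0.153), and E2f4, the main repressor E2F of DREAM, of 0.31 (limma adjusted p 0.175). With the robust prior 5 of the 12 were lower (41.7%) and 0 higher. The 5 were Rbl2, Dyrk1a, E2f2, E2f3 and Rb1. Of these, E2f2, E2f3 and Rb1 are not among the pocket proteins and E2F factors of the complex described above.

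Of 57 other measured genes of the spindle, kinetochore and cytokinesis, 1 fell and 1 rose (1.75% each), with a median of -0.06. The robust prior called 6 lower (10.5%) and 8 higher (14%). Cep55, which organises the final cut at the midbody, fell from 9414.6 ± 334 to 6592 ± 74.2 (SD, n = 3), a log2 difference of -0.51 ± 0.0682 (SE, limma adjusted p 0.0457). Nsl1, a subunit of the Mis12 kinetochore complex, rose from 289 ± 11.0 to 449.9 ± 29.5 (SD, n = 3), a difference of 0.64 ± 0.0833 (SE, limma adjusted p 0.0457). Of 17 genes of the anaphase-promoting complex, 0 passed in limma, with a median of 0.08. At an unadjusted limma p under 0.05, 3 were lower (17.6%) and 5 higher (29.4%). With the robust prior 2 were lower (11.8%) and 5 higher (29.4%). Of 17 other cohesin and condensin genes, 0 passed, with a median of -0.02. At an unadjusted limma p under 0.05, 2 were lower (11.8%) and 1 higher (5.88%). With the robust prior 2 were lower (11.8%) and 0 higher.

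The G1/S replication genes, which E2F factors drive ahead of the mitotic genes, had a median difference of 0.14 over 36 measured genes, with 30 of them above 0. None passed in limma, with 0 lower and 6 higher (16.7%) at an unadjusted p under 0.05. The robust prior called 0 lower and 8 higher (22.2%). In 21 of the 36 (58.3%) every mimic array lay above every control array. The background was 16.2% of all genes tested and 20.9% of those whose mean log2 reached 8. The members had 5 of 45 by the same count, and no test compared the lists.

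Arrays were slightly more alike within groups than between them, and no single array stood apart. Correlations of log2 intensity over the tested probe sets ran from 0.963 to 0.969 within groups and from 0.959 to 0.964 between them. All 7 ES cell markers (Pou5f1, Nanog, Sox2, Zfp42, Dppa5a, Esrrb, Tdgf1) were measured, with a median difference of 0.10 and 5 of them above 0. Zfp42, Esrrb and Tdgf1 had every mimic array above every control array, none of the 7 passed in the limma fit, and the robust prior called Esrrb higher. Their summed signal was 96876 to 105621 on the control arrays and 103550.0 to 108708 on the mimic arrays. Of 8 fibroblast markers, which feeder cells would carry, 4 were above the filter, while Col1a1, Col1a2, Col3a1 and Postn were below it. The summed fibroblast signal was 427 to 454 on the control arrays and 383 to 466 on the mimic arrays. Within that list Dcn had a difference of -0.90 (limma adjusted p 0.105) and Pdgfrb of 0.43 (limma adjusted p 0.0859), each without overlap between the groups. The part of either marker list in the results above was not tested.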

How the data were processed

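Total RNA of 6 samples was hybridised to Affymetrix arrays, and groups came from the sample titles. The authors deposited 1 linear intensity per probe set and array. GCRMA is named in the submitters' processing notes and usually gives logarithms, while the deposited intensities have a mean of 500 on each array once the extreme 2% are trimmed, as the global scaling of MAS 5.0 gives. Which tool made them is not settled, detection calls were not used, and low values cannot be told from background.

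Intensities were log2-transformed without an offset. Differences were tested 2-sided with limma 3.58.1 in R 4.3.3 (lmFit, eBayes with a constant prior variance, all 6 arrays, no covariates), after 64 control probe sets and 15870 with a mean log2 under 4 were left out. Benjamini-Hochberg adjustment ran over the other 29167. The script was tested on simulated data whose planted changes were larger than any member difference. That test does not cover differences as small as those of most members. The number of arrays limits the precision. In the related lists, genes past the threshold are named, with Rbl1, Rbl2 and E2f4. The brightest probe set (highest mean log2) stood for a gene. The 46 members, the related lists, the roles and the tests were chosen with earlier results of these data known. Every member is named; values on every array are given for members called under either prior, for MuvB, Mybl2 and Foxm1, and for the largest difference of each role. Those of Top2a, Cdk1, Plk1, Cdc20, Kif23 and a dim Bub3 probe set were added after their values were seen. Promoter and microRNA sequences are RefSeq's (GRCm38.p6), and the E2F letters were widened after a first search. The alternatives tried were other priors, scalings, filters, an offset, a replicate block, averaging the probe sets of a gene and leaving out arrays.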

Additional observations from a re-analysis of the deposited data

How the results depend on the processing

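In the fit reported, 0 member probe sets were lower and 1 higher, and 0 genes were lower or higher. The robust prior gave 6 and 4 probe sets and 3 and 3 genes. A filter at a mean log2 of 6, which tests fewer probe sets, gave 3 and 2 probe sets and 2 and 1 genes (Aurkb and Anln lower, Mybl2 higher). Over all 19503 probe sets tested at that filter, 1522 were lower and 851 higher. Averaging the probe sets of each gene gave 1 gene lower (Anln) and 1 higher (Mybl2). Shares over all genes for these gene counts are not given here. Median centring, no filter and the replicate block each gave 0 member probe sets higher, and the cause was not tested. Over all probe sets, no filter called 0 lower and 0 higher of 45037 tested, as did the block of 29167. Centring called 171 lower and 37 higher of 29167. Centring moved the median member difference to -0.072, and leaving out 1 array in turn gave -0.06 to -0.03. Without any 1 array, 0 member probe sets and 0 member genes passed in either direction in the fit reported, and over all probe sets 0 passed lower and 0 or 1 higher. With the robust prior, leaving out 1 array (an alternative added after seeing the data) gave 4 to 6 probe sets lower, 5 without control replicate 1, control replicate 2, mimic replicate 2 and mimic replicate 3, 3 to 4 higher, and 2 to 3 genes in each direction. Over all probe sets those fits called 1172 to 1586 lower and 713 to 1234 higher, of 29208 to 29410 tested.

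For the dimmer Mybl2 probe set the limma adjusted p was 0.0506 with median centring, 0.131 with no filter and 0.208 with the replicate block. It stayed under 0.05 with quantile normalization, the offset, the robust prior and the filter at 6. Of 665 combinations of a member gene and an alternative, 42 changed sign, and 0 of these were called in either fit. Deviations of same-numbered arrays from their group means had correlations of -0.006, 0.012 and 0.024 over the tested probe sets. Many of these probe sets are noisy, so the correlations cannot show whether same-numbered samples shared a culture or a batch. Over all probe sets the block called 0 lower and 0 higher. Signals near the floor, as for Lin52, limit what can be read.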
